A study of Mus musculus with 6 samples.

Results

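The genes described here are 6 STAT transcription factors (*Stat2*, *Stat3*, *Stat4*, *Stat5a*, *Stat5b* and *Stat6*) and 3 suppressors of cytokine signaling (*Socs1*, *Socs2* and *Socs3*). They were taken by symbol from the 24062 genes counted in bulk RNA-seq libraries, and all 9 were found there. Of these, *Socs3* was 3.31-fold lower in tissue labelled as floxed for *Runx1* and *Runx3* and *Stat2* was 1.93-fold lower, while *Stat3*, the member with the highest mean per kilobase, stood at the same mean level in both genotypes within its error.

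The 6 libraries came from mouse dorsal root ganglion (DRG)/tumors of C57BL/6-I129 background, 3 per genotype. *Nf1fl/fl;DhhCre* mice lose *Nf1* in the Schwann cell (SC) lineage, where the *Dhh* promoter drives Cre, and form neurofibromas. The other group is *Runx1fl/fl;Runx3fl/fl;Nf1fl/fl;DhhCre*, called double knockout here. By these genotypes both groups share the floxed *Nf1* and the Cre, and cells in which Cre never acted keep intact alleles of the floxed genes. The sample labels omit *Nf1fl/fl* from the second genotype and name its tissue neurofibroma tumor and that of the first DRG. If the labels are right, the floxed *Nf1* also differs between the groups. Neither it nor tissue could then be told apart from the floxed *Runx1* and *Runx3*. The age and sex of these mice are not given in the sources used here. The names of the libraries carry different mouse numbers.

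STAT proteins wait in the cytoplasm until a cytokine, interferon or growth hormone receptor brings its JAK kinases together. The kinases phosphorylate the STAT, which pairs, enters the nucleus and activates target genes. SOCS genes are among those targets, and their proteins bind receptors and JAKs and shut the signal off, so that the level of a SOCS transcript is widely read as a trace of recent signaling. In nerve, interleukin-6 family cytokines acting through gp130 and STAT3 are known from the response to injury, and STAT3 has been linked to neurofibroma growth.

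Library totals ran from 12439296 to 16682194 assigned reads, and 3 reads in a library come to 0.179 to 0.247 CPM, counts brought to a common library total after scaling by the trimmed mean of M values. *Runx1*, a deleted gene, measured 131, 141 and 172 CPM in *Nf1fl/fl;DhhCre* and 84.0, 78.9 and 185 CPM in those labelled double knockout. The third double-knockout library was therefore the highest of all. Cells in which Cre never acted keep *Runx1*, so a bulk level cannot decide whether the label holds. Sensory neuron genes summed to 15354 CPM in that library, against 6827 and 7936 CPM in double knockout replicates 1 and 2. Their part in the *Runx1* level was not tested. Directions below are those between libraries as labelled. *Runx3* was lower in each double-knockout library, at 13.5, 10.3 and 12.1 CPM against 19.9, 15.1 and 29.9 CPM (log2 fold change −0.79, SE 0.30, adjusted p = 0.104 by limma-voom). Skeletal muscle genes summed to 3114 CPM in *Nf1fl/fl;DhhCre* replicate 2 and to 13883 CPM in double knockout replicate 2, against 6.86 to 89.4 CPM in the others. Results are also given without these libraries. One double-knockout library was sequenced in another run, and the sources disagree on whether it is replicate 2 or 3. Both Schwann cell and sensory neuron markers were detected in every library, with *Sox10* between 195 and 256 CPM.

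Of the 8 members that passed the filter on low counts, 1 met both thresholds of a differentially expressed gene (adjusted p below 0.05 and more than 2-fold change, limma-voom with Benjamini-Hochberg adjustment over 15652 genes), beside 13.4% of all genes tested. It was *Socs3*, which was lower, as were 5.36% of all genes tested. At the adjusted p alone there were 2 members, *Socs3* and *Stat2*, beside 19.3% of all genes in either direction and 8.22% lower. The 3 double-knockout values did not overlap the 3 *Nf1fl/fl;DhhCre* values for *Socs3*, *Stat2* and *Stat6*, beside 42.3% of all genes tested. The fitted change was negative for 6 members and positive for 2, with a median log2 fold change of −0.22 against 0.02 over all genes.

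**Figure D1:**
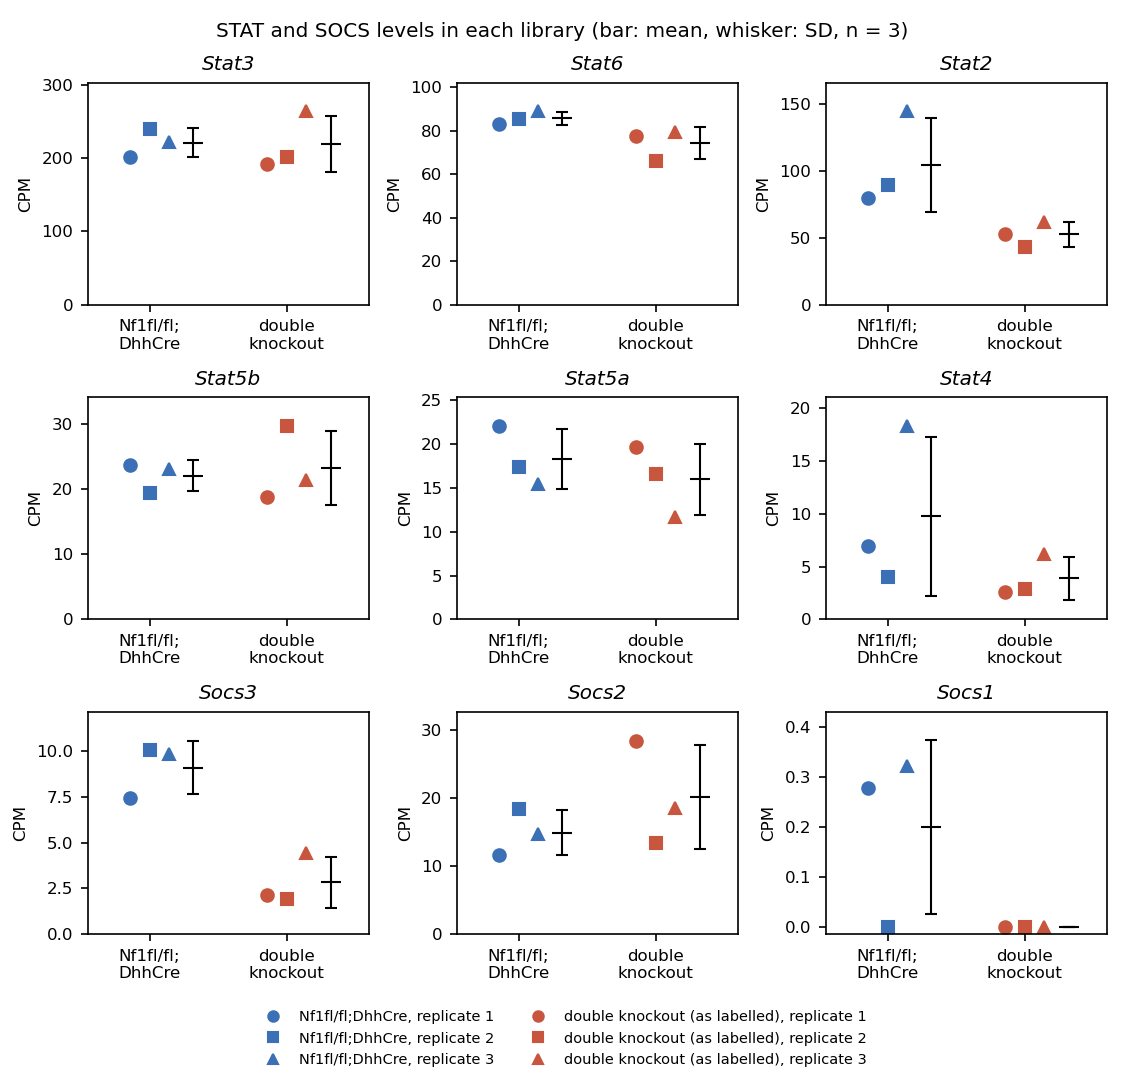
Each panel plots 1 gene, with CPM on a linear axis and 1 symbol per library, blue for *Nf1fl/fl;DhhCre* and red for double knockout, and a bar with whisker for the mean and SD of 3 libraries. The red *Socs3* symbols, between 1.89 and 4.42 CPM, lie below all blue ones, between 7.42 and 10.1 CPM, while the *Stat3* symbols of both colors intermingle.

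*Socs3* encodes the inhibitor that binds gp130 and its JAKs and ends interleukin-6 family signaling through STAT3. It was at 7.42, 10.1 and 9.81 CPM in the *Nf1fl/fl;DhhCre* libraries, from 107, 169 and 153 reads. In double knockout it was at 2.15, 1.89 and 4.42 CPM, from 27, 23 and 67 reads. Every double-knockout library lay below every *Nf1fl/fl;DhhCre* library, and the nearest to them was replicate 3, the library with the high *Runx1*. The means were 9.10 ± 1.46 CPM (SD, n = 3) and 2.82 ± 1.39 CPM (SD, n = 3). On the log2 scale the change was −1.73 (SE 0.37, 95% interval −2.61 to −0.85, adjusted p = 0.0229 by limma-voom with Benjamini-Hochberg adjustment). It passed both thresholds in all 8 other settings of tool, scaling, filter and weights, at −1.80 to −1.68. With 1 library left out it passed in 2 of 6 fits. The call was kept without *Nf1fl/fl;DhhCre* replicate 2 (−1.59, adjusted p = 0.0395 by limma-voom) and without double knockout replicate 3 (−2.14, adjusted p = 0.0295). It was lost without *Nf1fl/fl;DhhCre* replicates 1 or 3 (adjusted p = 0.0573 and 0.0651) and without double knockout replicates 1 or 2 (adjusted p = 0.0681 and 0.0785). Without both libraries that hold muscle RNA it was −1.40 (adjusted p = 0.0973 by limma-voom).

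*Socs3* spans 117966079 to 117970047 of chromosome 11 (GRCm38, minus strand). The 250 bases before the start that RefSeq gives it are printed because SOCS genes are themselves STAT targets. That start lies 681 bases inside the GENCODE span, so the printed bases fall within that span and distances are counted from the RefSeq start. They are at chr11:117969367-117969616 of GRCm38.p6 on the minus strand. The capitals mark a match to the STAT palindrome TTCNNNGAA, 154 to 146 bases upstream.

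Socs3 promoter: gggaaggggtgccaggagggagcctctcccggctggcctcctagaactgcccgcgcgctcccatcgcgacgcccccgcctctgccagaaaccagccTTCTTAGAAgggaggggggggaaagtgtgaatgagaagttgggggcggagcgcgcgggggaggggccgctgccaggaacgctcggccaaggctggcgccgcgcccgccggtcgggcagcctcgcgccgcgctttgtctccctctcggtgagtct

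This match was looked for on both strands of the 300 bases from 250 before to 50 after the start, where 8.30% of 32851 RefSeq promoters hold one. Of the promoters found for members (all but *Socs2*), only that of *Socs3* had it. The RUNX core TGTGGT, which 16.8% of all promoters hold on either strand, was not matched in the *Socs3* window, and neither was the interferon response motif GAAANNGAAA, which 3.44% hold. A match describes the letters only.

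*Socs2*, an inhibitor of growth hormone receptor signaling and a target of STAT5, ran the other way without passing the test. It was at 11.7, 18.3 and 14.8 CPM in *Nf1fl/fl;DhhCre* and at 28.4, 13.4 and 18.6 CPM in double knockout. Double knockout replicate 1 was the highest of all and replicate 2 lay among the *Nf1fl/fl;DhhCre* libraries. Its log2 fold change was 0.38 (95% interval −0.34 to 1.10, adjusted p = 0.420 by limma-voom). It spans 95385362 to 95417180 of chromosome 10 (minus strand).

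*Socs1*, an inhibitor of interferon and interleukin-4 signaling, was at the edge of detection. It had 4, 0 and 5 reads in the *Nf1fl/fl;DhhCre* libraries and 0 reads in each double-knockout library, which allows up to 3 reads in each. It did not pass the filter on low counts. In the fit of every gene with a read, it had an adjusted p of 0.294 by limma-voom. The gene spans 10782240 to 10785536 of chromosome 16 (minus strand). Its promoter held a pair of overlapping interferon response matches, 83 to 74 and 77 to 68 bases upstream.

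*Stat2*, the partner of IRF9 in the interferon-stimulated complex that answers type I interferon, measured 79.3, 89.3 and 144 CPM in the *Nf1fl/fl;DhhCre* group. In double knockout it was at 52.7, 42.8 and 61.7 CPM. The groups did not overlap, and *Nf1fl/fl;DhhCre* replicate 3 stood well above the rest. The means were 104 ± 34.9 CPM (SD, n = 3) and 52.4 ± 9.44 CPM (SD, n = 3). On the log2 scale the change was −0.95 (SE 0.26, 95% interval −1.56 to −0.34, adjusted p = 0.0425 by limma-voom with Benjamini-Hochberg adjustment), which is short of 2-fold. DESeq2 (−1.004, adjusted p = 0.00314) and scaling by library size only (−1.03, adjusted p = 0.0343) put it past both thresholds. The adjusted p rose above the threshold in all 6 fits with 1 library left out, to between 0.0566 and 0.130, with log2 fold changes of −1.09 to −0.65. The smallest of these decreases was that without *Nf1fl/fl;DhhCre* replicate 3, and it was −0.89 (adjusted p = 0.120 by limma-voom) without both libraries with muscle RNA.

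*Stat2* spans 128270559 to 128292849 of chromosome 10 (plus strand). The 250 bases before its RefSeq start, which lies 61 bases before the GENCODE start, are printed because it was the STAT gene whose adjusted p was below 0.05. Distances are counted from the RefSeq start. The bases are at chr10:128270248-128270497 of GRCm38.p6 on the plus strand. The capitals mark, in order, a match to the interferon response motif read on the other strand, 222 to 213 bases upstream, and the RUNX core, 68 to 63 bases upstream.

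Stat2 promoter: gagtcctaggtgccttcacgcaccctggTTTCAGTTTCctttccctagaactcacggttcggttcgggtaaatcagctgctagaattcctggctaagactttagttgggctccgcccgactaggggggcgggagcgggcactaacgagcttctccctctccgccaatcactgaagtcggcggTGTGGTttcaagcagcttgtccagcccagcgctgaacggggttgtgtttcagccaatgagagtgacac

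Among the members' promoters, the RUNX core was also found for *Stat6*, 151 to 146 bases upstream, and within the transcribed part of the window of *Stat5a*. The interferon response motif was also found for *Socs1* and for the second window of *Stat4*. None was found for *Stat3* or *Stat5b*.

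*Stat3*, which carries the signal of gp130 receptors, was at 202, 240 and 223 CPM in *Nf1fl/fl;DhhCre* and at 192, 202 and 264 CPM in double knockout. The groups overlapped throughout, with a double-knockout library at either end. On the log2 scale the change was −0.02 (SE 0.15, adjusted p = 0.939 by limma-voom), with a 95% interval of −0.38 to 0.34 that leaves out a change of 2-fold in either direction. The sign turned in 4 of the 6 fits with 1 library left out, which ran from −0.16 to 0.11. The gene spans 100885098 to 100939540 of chromosome 11 (minus strand), and its 3′ end overlaps *Stat5a* on the other strand by 72 bases. Whether the counts used strand is not stated, so reads in this overlap cannot be assigned.

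*Stat6*, the factor of interleukin-4 and interleukin-13, was the steadiest member in *Nf1fl/fl;DhhCre*, at 83.0, 85.4 and 88.8 CPM. It was at 77.7, 66.0 and 79.3 CPM in double knockout. All 3 were lower, but the difference was small (log2 fold change −0.21, 95% interval −0.50 to 0.09, adjusted p = 0.288 by limma-voom). It spans 127642986 to 127660957 of chromosome 10 (plus strand), 609601 bases from *Stat2*.

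*Stat5a* and *Stat5b* encode near-identical proteins that answer growth hormone, prolactin and many hematopoietic cytokines. *Stat5a* was at 22.1, 17.4 and 15.5 CPM in *Nf1fl/fl;DhhCre* and at 19.7, 16.6 and 11.7 CPM in double knockout (log2 fold change −0.22, 95% interval −0.81 to 0.36, adjusted p = 0.562 by limma-voom). *Stat5b* was at 23.7, 19.3 and 23.0 CPM and at 18.7, 29.6 and 21.3 CPM (log2 fold change 0.05, 95% interval −0.44 to 0.55, adjusted p = 0.886 by limma-voom). Neither pair of groups separated. The genes lie 8626 bases apart on chromosome 11, with *Stat5b* at 100780731 to 100850724 (minus strand) and *Stat5a* at 100859351 to 100885169 (plus strand). Reads from their shared sequence may have been split or dropped in counting, so each level is uncertain.

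*Stat4*, the factor of interleukin-12 in T and NK cells, varied most among the STAT genes. It was at 6.94, 4.05 and 18.3 CPM in *Nf1fl/fl;DhhCre* and at 2.55, 2.88 and 6.21 CPM in double knockout. Replicate 3 was the highest in both genotypes, and the groups overlapped. The log2 fold change of −1.10 did not pass the test (SE 0.69, 95% interval −2.71 to 0.52, adjusted p = 0.300 by limma-voom), and it was −0.45 without *Nf1fl/fl;DhhCre* replicate 3. The gene spans 51987148 to 52107189 of chromosome 1 (plus strand). In the same *Nf1fl/fl;DhhCre* replicate 3, *Cd4*, of the T and NK cell list, was at 23.3 CPM, against at most 3.34 CPM in the other libraries. The summed level of the list, with *Cd4* included, was 57.3 CPM there and 6.21 to 18.8 CPM elsewhere. Not every gene of the list was highest there. *Klrb1c*, the only gene of the list past both thresholds, was at 1.92 CPM there and at 2.98 CPM in *Nf1fl/fl;DhhCre* replicate 1. The part of these cells in the *Stat4* level was not tested.

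**Figure D2:**
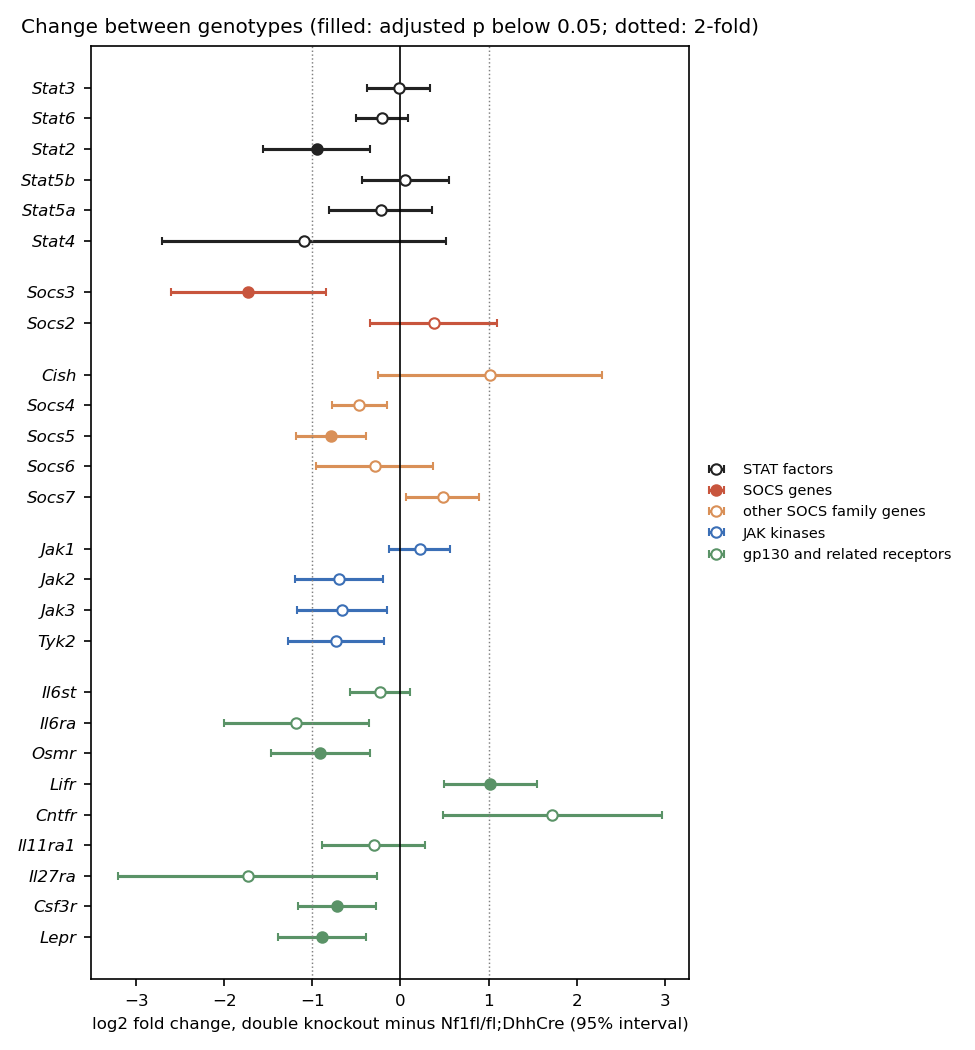
Points are log2 fold changes (double knockout minus *Nf1fl/fl;DhhCre*) with 95% intervals from limma-voom, for the 8 members tested, other SOCS genes, JAK kinases and gp130 receptors, and filled points have an adjusted p below 0.05. *Socs3* at −1.73 lies beyond the dotted 2-fold line, *Stat2* at −0.95 stops short of it, and *Lifr* at 1.02 is the filled point on the positive side.

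Levels of different genes were compared in CPM per kilobase of merged exons (GENCODE M21). In *Nf1fl/fl;DhhCre*, *Stat3* had the highest mean at 23.2, followed by *Stat6* at 19.5 and *Stat2* at 17.6. The range of *Stat2* (13.4 to 24.3) overlapped both that of *Stat6* and that of *Stat3*, and in replicate 3 *Stat2* (24.3) was above *Stat3* (23.4). A gap then led to *Stat5b* at 3.97, *Socs3* at 3.15, *Stat5a* at 2.57, *Stat4* at 2.52 and *Socs2* at 1.56. Among neighbors, *Socs3* overlapped *Stat5a*, *Stat5a* overlapped *Stat4* and *Stat4* overlapped *Socs2*. The range of *Stat4* (1.05 to 4.72) also took in those of *Socs3* and *Stat5b*. In replicate 3 *Stat4* (4.72) was above *Stat5b* (4.16). *Socs1* was last, at 0.0686. In double knockout the order began with *Stat3* at 23.0, *Stat6* at 16.9, *Stat2* at 8.84 and *Stat5b* at 4.19, with no overlap between neighbors. *Stat5a* at 2.24, *Socs2* at 2.11, *Stat4* at 1.002 and *Socs3* at 0.976 followed, each overlapping the next. In double knockout replicate 1, *Socs3* (0.744) was above *Stat4* (0.659).

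As a share of the 6 STAT genes per kilobase, *Stat3* made 33.8, 37.8 and 29.6% in the *Nf1fl/fl;DhhCre* libraries and 37.7, 40.9 and 43.8% in double knockout. *Stat2* made 21.4, 22.6 and 30.8% and then 16.6, 13.9 and 16.5%. The *Stat2* shares did not overlap between genotypes, whereas those of *Stat3* met at 37.8 and 37.7%.

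Ratios of counts within a library ask whether a pair of genes changed unequally, since the scaling of the library cancels. The log2 ratio of *Socs3* to *Stat3* was −4.76, −4.57 and −4.50 in *Nf1fl/fl;DhhCre* and −6.46, −6.71 and −5.89 in double knockout, a difference of −1.74. That of *Socs3* to *Il6st*, which encodes gp130, differed by −1.53. In both, no double-knockout library reached the *Nf1fl/fl;DhhCre* range. The two-sided exact permutation test gave p = 0.1 for each, the smallest that 3 against 3 libraries allow (adjusted p = 0.3 over 6 ratios), so this design cannot pass the threshold. The ratio of *Stat2* to *Irf9* was alike in 5 libraries, between 1.20 and 1.39, and at 2.15 in double knockout replicate 3 (difference 0.27, exact p = 0.7). *Stat5a* to *Stat5b* differed by −0.27 (exact p = 0.4) and *Socs2* to *Stat5b* by 0.33 (exact p = 0.7). The ratio of *Socs1* to *Stat6* rests on the few *Socs1* reads and is set by the pseudocount of 0.5 (difference −1.76, exact p = 0.4).

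**Figure D3:**
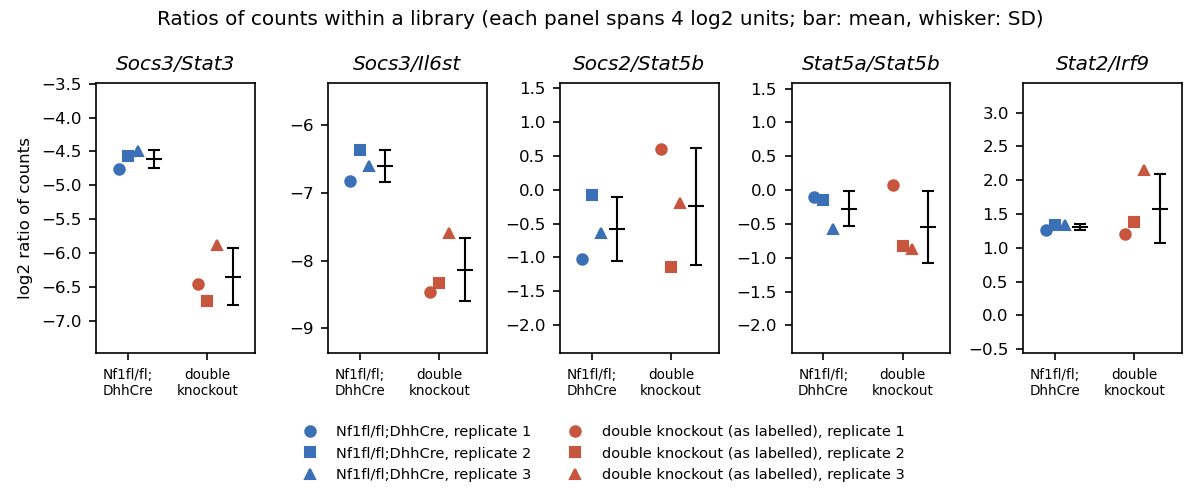
The log2 ratio of counts is plotted per library for 5 pairs of genes, blue for *Nf1fl/fl;DhhCre* and red for double knockout, with mean and SD (n = 3), and every panel spans 4 log2 units. The red symbols lie below the blue ones for *Socs3* against *Stat3* and against *Il6st*, and 1 red triangle at 2.15 stands apart for *Stat2* against *Irf9*.

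The other genes of the pathway were counted from lists of 126 genes, of which 103 were tested. Of these, 29 fell past both thresholds and 3 rose, beside 5.36% lower and 8.03% higher over all genes. At the adjusted p alone 37 were lower and 3 higher, beside 8.22% and 11.1% of all genes. In place of these 32 there were 7 without *Nf1fl/fl;DhhCre* replicate 1, 12 without double knockout replicate 2, and 19 and 20 without double knockout replicate 3 or *Nf1fl/fl;DhhCre* replicate 3. The median log2 fold change of the 103 was −0.91 against 0.02 over all genes. The lists were chosen with earlier results of these data known, so these counts are descriptions only. They hold *Il4ra*, *Ccnd1* and *Bcl3*, which the study had already reported as down-regulated.

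None of the 4 JAK kinases passed the test. *Jak1*, which serves gp130 and interferon receptors, was at 240, 226 and 257 CPM and at 250, 258 and 338 CPM (log2 fold change 0.22, adjusted p = 0.337 by limma-voom). *Jak2*, *Jak3* and *Tyk2* had log2 fold changes of −0.70, −0.67 and −0.73 with adjusted p between 0.0600 and 0.0722, and each was lower in all 3 double-knockout libraries. Among the 5 other SOCS family genes none met both thresholds. *Socs5*, named after its value was seen, was lower at 68.7, 60.9 and 70.9 CPM against 144, 103 and 105 CPM (log2 fold change −0.79, adjusted p = 0.0222 by limma-voom).

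Of the 9 gp130 and related receptors, *Lifr*, the receptor of leukemia inhibitory factor, rose from 258, 354 and 242 CPM to 475, 504 and 763 CPM (log2 fold change 1.02, adjusted p = 0.0240 by limma-voom). *Il6st* was at 848, 833 and 958 CPM and at 774, 625 and 864 CPM (log2 fold change −0.23, adjusted p = 0.298). None of the 9 fell past both thresholds, and 3 were lower at the adjusted p alone. Of the 9 fitted changes 7 were negative and 2 positive, with a median log2 fold change of −0.72. Both other genes that rose were hormone receptors that signal through STAT5, *Prlr* for prolactin (1.56, adjusted p = 0.0226) and *Ghr* for growth hormone (1.28, adjusted p = 0.0410), of 3 tested. With 1 library left out, *Prlr* stayed past both thresholds in 4 of 6 fits, *Lifr* in 2 and *Ghr* in 1.

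Of 8 common gamma chain and related receptors tested, 4 fell, in order of adjusted p *Il13ra1* (−1.68, adjusted p = 0.0144 by limma-voom) and *Il4ra* (−1.32, adjusted p = 0.0154), which signal through STAT6, then *Il7r* (−2.68) and *Il21r* (−3.17). Both *Csf2ra* (−1.37) and *Csf2rb* (−1.52), receptor chains for GM-CSF, fell, of 4 common beta chain receptors tested. *Ifngr1*, a chain of the interferon-gamma receptor, fell by 1.02 on the log2 scale, alone past both thresholds among 7 tested of its list. All 7 fitted changes in that list were negative, and 3, *Ifngr1* among them, had an adjusted p below 0.05. Only 8 of 22 ligand genes had enough reads to be tested, and *Il15*, a cytokine of T and NK cells, fell by 1.08 on the log2 scale. *Il6*, *Osm* and *Il10* were among 13 ligands with 0 reads in at least 1 library. Of 11 other inhibitors 4 fell, *Ptprc* (−3.17), *Ptpn1* (−1.13), *Usp18* (−1.91) and *Ptpn6* (−2.31). *Ptprc* encodes CD45, found on blood-derived cells, and *Usp18* is an interferon target. Over the 6 fits with 1 library left out, *Ptprc*, *Il13ra1* and *Il4ra* were called in 5, *Il7r* in 4 and *Csf2ra* and *Ptpn1* in 3. *Il21r*, *Csf2rb* and *Usp18* were called in 2, and *Ifngr1*, *Il15* and *Ptpn6* in 1.

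Target genes of each factor were counted beside the factor, and over all genes tested 5.36% fell and 8.03% rose past both thresholds. Of 12 genes listed as the STAT2 partner and interferon targets, 6 fell and none rose, with a median log2 fold change of −1.94, and all 12 fitted changes were negative. *Irf9* was at 33.2, 35.2 and 57.2 CPM and at 23.0, 16.4 and 13.9 CPM (−1.24, adjusted p = 0.0279 by limma-voom). *Oasl2* was at 340, 369 and 678 CPM and at 115, 80.9 and 108 CPM (−2.13, adjusted p = 0.00936). *Ifi44* (−2.78), *Ifit1* (−1.82) and *Bst2* (−1.84) also fell. *Nf1fl/fl;DhhCre* replicate 3 was the highest library for *Stat2* and for *Irf9*, *Oasl2*, *Ifi44* and *Ifit1*, but the lowest of its group for *Bst2*. *Oasl2* and *Ifi44* were called in 6 of the 6 fits with 1 library left out, *Ifit1* in 4, and *Irf9* and *Bst2* in 2.

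**Figure D4:**
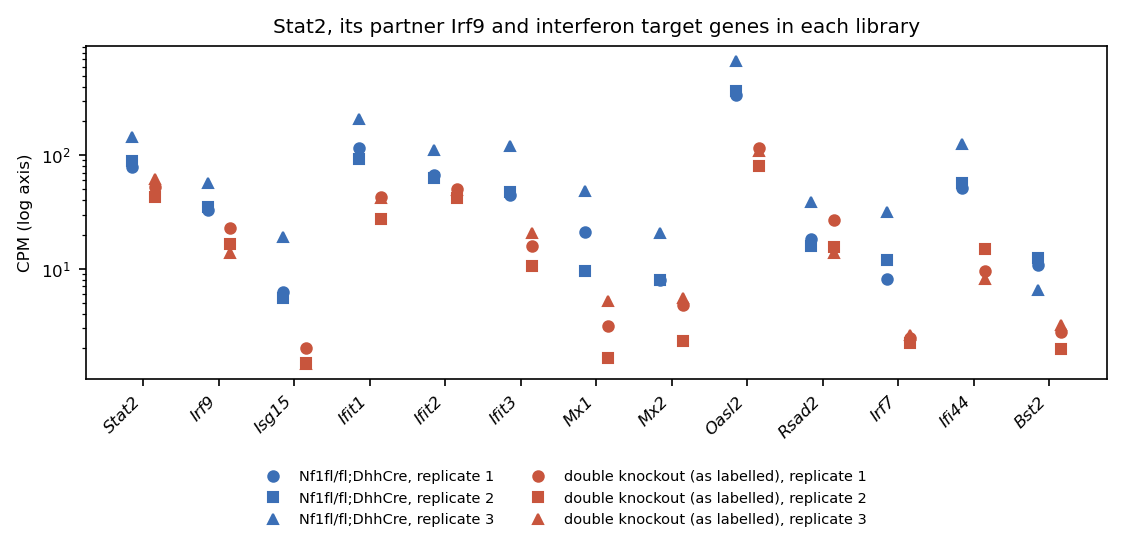
CPM on a log axis is plotted for *Stat2*, *Irf9* and 11 interferon targets, with 1 symbol per library, blue for *Nf1fl/fl;DhhCre* and red for double knockout. Red lies below blue for *Stat2* and for 11 of the 12 others, all but *Rsad2*, and the blue triangle (replicate 3) is the highest for all genes shown but *Bst2*.

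Of 16 STAT3 targets 4 fell and none rose past both thresholds, beside 5.36% lower and 8.03% higher over all genes tested. The level of *Stat3* itself did not pass the test. *Ccnd1*, a cyclin, was at 1103, 811 and 1438 CPM and at 398, 213 and 287 CPM (−1.91, adjusted p = 0.0103 by limma-voom). *Timp1*, an inhibitor of matrix proteases, fell by 2.81, *Icam1*, an adhesion molecule, by 2.21 and *Bcl3* by 1.09 on the log2 scale. The study had already reported *Ccnd1* and *Bcl3* as down-regulated from its RNA-seq of these genotypes. The list was chosen with earlier results of these data known, so its count is a description only. With 1 library left out, *Icam1* stayed past both thresholds in 6 of 6 fits, *Timp1* and *Ccnd1* in 5 and *Bcl3* in 0. Of 5 STAT5 targets, *Igf1* (−1.80) and *Ccnd2* (−1.44) fell. All 3 of the STAT4 targets tested fell, *Il18rap* (−3.17), *Hlx* (−1.78) and *Il18r1* (−2.66). Of 8 STAT6 targets tested, *Mrc1*, a mannose receptor of macrophages, fell by 2.04 on the log2 scale. Of these, *Igf1* was called in 6 of the 6 fits with 1 library left out, *Il18rap* and *Mrc1* in 5, *Ccnd2* and *Hlx* in 2 and *Il18r1* in 1. Many of these genes have other regulators as well.

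Cell type markers were counted in the same comparison, where 5.36% of all genes tested fell and 8.03% rose past both thresholds. Of 13 macrophage genes tested 9 fell (median log2 fold change −2.16), and their summed level was 1211 to 2144 CPM in *Nf1fl/fl;DhhCre* and 265 to 567 CPM in double knockout. Of 9 T and NK cell genes tested 1 fell, and 4 of the 11 listed were at 0 in at least 1 library. All 9 fitted changes were negative, with a median log2 fold change of −1.98. The summed level of this list was 15.6 to 57.3 CPM in *Nf1fl/fl;DhhCre* and 6.21 to 8.53 CPM in double knockout. Of 8 fibroblast genes 4 fell, from sums of 9267 to 9941 CPM to 3465 to 5687 CPM. Sensory neuron genes rose for 17 of 18, from sums of 1377 to 2872 CPM to 6827 to 15354 CPM, with double knockout replicate 3 the highest. Myelinating Schwann cell genes rose for 8 of 9, from sums of 5014 to 5885 CPM to 11105 to 14559 CPM. Schwann cell genes rose for 3 of 9 (median −0.05), and neither any of 8 endothelial genes nor any of 10 skeletal muscle genes passed. In bulk tissue fewer cells of a type and less RNA per cell cannot be told apart, and the part of these cell types in the levels of *Socs3*, *Stat2* and the other genes was not tested.

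**Figure D5:**
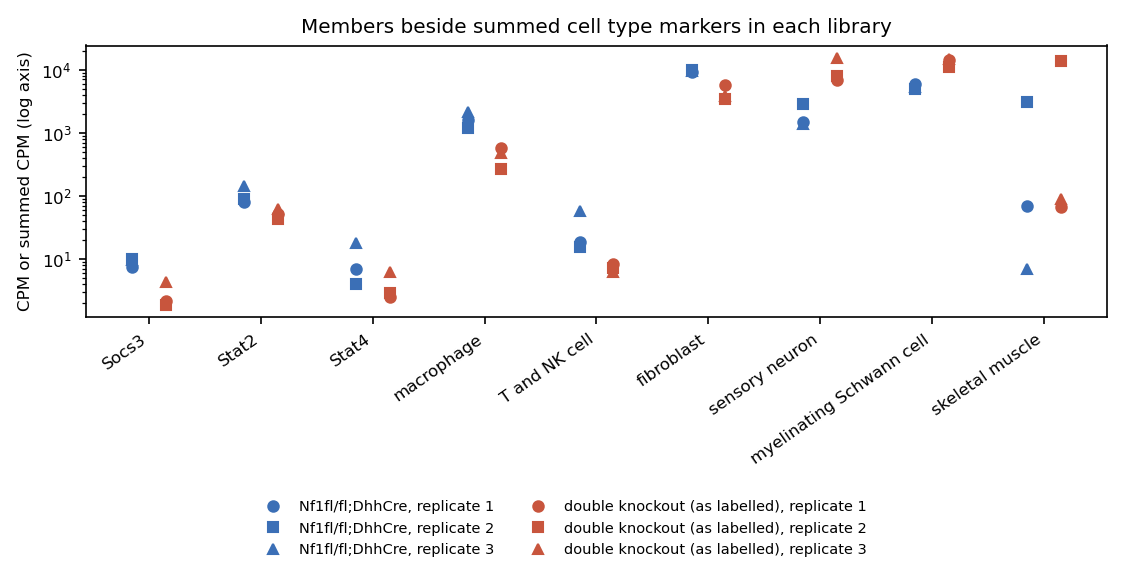
CPM of *Socs3*, *Stat2* and *Stat4* and summed CPM of 6 marker lists are plotted per library on a log axis, blue for *Nf1fl/fl;DhhCre* and red for double knockout. *Socs3*, *Stat2*, the macrophage, T and NK cell and fibroblast sums are lower in red, the neuron and myelin sums are higher in red, and the muscle sum is high in the square (replicate 2) of both colors.

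By Pearson's r of log2 CPM over the 6 libraries, the genes most like *Socs3* among 10222 compared were *Pwwp2a* (r = 0.993), *Sox9* (0.992) and *Ccm2* (0.992). The genes most like *Stat2* among 10221 were *Edem1* (r = 0.998), *Pltp* (0.995) and *Prdm1* (0.995). These are descriptions over 6 points that share genotype, library and depth.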

How the data were processed

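Bulk RNA-seq was available for 6 mouse libraries, 3 per genotype, grouped by the genotype in the labels. Amplification used the NuGEN Ovation system and library construction Nextera XT. TopHat placed the read pairs on mm10. The deposited values are raw counts of reads per gene, which the authors obtained with featureCounts. The annotation, the strand setting and how multiply aligned reads were handled are not given in the sources used here. Amplification means that reads are not independent molecules, and floors cover counting error only.

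The filter on low counts was filterByExpr (at least 10 reads, and 15 in total). TMM scaling was followed by limma-voom (R 4.3.3, edgeR 4.0.16, limma 3.58.1), with genotype as the only term and Benjamini-Hochberg adjustment. CPM used the TMM factors. Standard errors and intervals are those of the moderated fit, and its p-values set the difference between genotypes against the spread between these samples. Replicate numbers follow the order of the labels and pair nothing. Titles and files exchange some mouse numbers within a genotype. No pair of replicates agreed within sampling noise (chi-square per degree of freedom of 21.7 or more). Ratios within a library used a pseudocount of 0.5 and an exact permutation test in scipy 1.17.1. Other settings were DESeq2 1.42.0, edgeR's quasi-likelihood test, limma-voom with DESeq2 size factors or with library size only, no filter on low counts, a filter of more than 1 CPM in 3 libraries, quality weights, the muscle score as a covariate, the adjusted p alone, a pseudocount of 2, and each library left out. Scripts were tested on simulated data.

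The members and the gene lists were chosen with earlier results of these data known. The text names every member, up to 4 genes per pathway list past both thresholds in order of adjusted p, the JAK kinases, the partners in the ratios, *Runx1* and *Runx3*, and for members with an adjusted p below 0.05 the 3 genes of average log2 CPM of at least 3 most correlated with them. Gene positions and lengths came from GENCODE M21 (GRCm38) and promoters from RefSeq. Some genes of the files are not reported here.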

Additional observations from a re-analysis of the deposited data

How the results depend on the processing

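Without 1 library at a time, the number of members past both thresholds ranged from 0 to 1, that of other JAK-STAT genes from 7 to 39 (main 32) and that of all genes from 362 to 2285 (main 2096). The fewest were without *Nf1fl/fl;DhhCre* replicate 1. For other JAK-STAT genes the counts were 20 without *Nf1fl/fl;DhhCre* replicate 3, and 12 and 19 without double knockout replicates 2 and 3. For all genes they were 1033 without *Nf1fl/fl;DhhCre* replicate 3 and 1018 without double knockout replicate 2. Fewer samples enter these fits, and no other cause was tested. Members past the thresholds were 2 with DESeq2, with library size only and with the adjusted p alone, and DESeq2 called 50 other JAK-STAT genes. *Stat2* was at −1.004 with DESeq2 and −1.03 with library size only, past both thresholds. *Socs3* ranged from −2.14 to −1.499 without 1 library. *Stat3* ranged from −0.16 to 0.11, *Stat5a* from −0.36 to 0.0088 and *Stat5b* from −0.12 to 0.22, changing sign. *Stat5b* was −0.019 with library size only and −0.0081 with quality weights. The ratio of *Socs2* to *Stat5b* ranged from −0.090 to 0.78 and that of *Stat2* to *Irf9* from −0.018 to 0.46, changing sign without double knockout replicates 1 and 3, respectively. A fit without both libraries with muscle RNA, chosen after seeing the data, called 0 members, with *Socs3* at −1.40, *Stat3* at 0.11 and *Stat5b* at −0.20. The cause was not tested. *Stat4*, *Stat6* and *Socs2* kept their direction and stayed short of the thresholds in all settings. No paired analysis was possible because the replicate numbers follow the order of the labels and pair nothing. Depth limits *Socs1*, with at most 5 reads per library.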
